A study of Mus musculus with 5 samples.

Results

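The 44 genes described here encode inflammatory cytokines and chemokines, the Toll-like receptors with their co-receptor and adaptor, the NF-kB subunits with their inhibitors and feedback genes, and surface or effector molecules used as markers of the inflammatory (M1) macrophage state. They are listed by name, with no threshold on their values, and are 44 of the 49246 genes with a listed transcript in every library. The cells were bone marrow-derived macrophages (BMDM) of wild type C57BL/6 mice, differentiated for 6 days in medium with either recombinant CSF1 or conditioned supernatant of L929 cells. Which of these each library received is not given in the sources used here; 96% of the differentiated cells carried F4/80 and CD11b, per the labels. All cells received 10 ng/ml interleukin 4 (IL-4), the cytokine used to set the alternative (M2) state, and were harvested after 24 h. Before IL-4, the cells of 3 libraries received 30 µM CBR-5884, an inhibitor of PHGDH, the first enzyme of serine synthesis from glucose (replicates 3, 4 and 5), and those of 2 received solvent (replicates 3 and 5). Cells without IL-4 or with a bacterial stimulus were not analysed here, so the values compare 2 states of IL-4-treated cells. Nothing in the labels ties the replicates to separate animals or cultures, so the p-values reflect the spread of these 5 libraries, and that spread may be technical.

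Toll-like receptors recognise microbial molecules at the cell surface (Tlr1, Tlr2, Tlr4 and Tlr6, which bind lipopeptides and lipopolysaccharide) or in endosomes (Tlr3, Tlr7, Tlr8, Tlr9 and Tlr13, which belong to the nucleic acid sensors). Most of them signal through the adaptor Myd88 to the IKK kinases, which mark the inhibitor IkB-alpha (Nfkbia) for degradation and so release NF-kB dimers into the nucleus. NF-kB then drives genes such as Tnf, Il1b, Il6 and the CXC chemokines, and with them its own inhibitors Nfkbia and Tnfaip3, which end the response. In macrophages IL-4 acts through STAT6 and is known to oppose much of this program.

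RefSeq promoter windows (GRCm38.p6) were available for 34 of the 44 genes. They were searched, over the 250 bases before each annotated start, for the letters of an NF-kB site on either strand (GGG, any 5 bases, then CC, or in reverse GG, any 5 bases, then CCC), with overlapping matches counted separately. Of the 42 windows of these genes, 26 (61.9%) held a match, against 45.8% of all 32851 windows of that length in the table. The letters are short and frequent, so a match is a description of the sequence and not a binding site. A STAT6 pattern (TTC, any 4 bases, then GAA) was found in 8 windows of the genes (19.0%, against 5.85% of the 32851 windows), and an interferon response pattern (GAAA, any 2 bases, then GAAA) in 3 (7.14%, against 2.98%). These shares count windows, so a gene with several starts counts more than once. The NF-kB matches lay in 22 of the 34 genes and the STAT6 matches in 6, with overlapping windows of Il1rn among the latter. The windows of 4 genes are printed 5′ to 3′ on the gene's strand, with NF-kB letter matches in capitals. They are shown because Nfkbia and Tnf are textbook NF-kB targets with values on opposite sides here, Cxcl3 had the largest fitted difference of the 32 genes tested and 5 overlapping or separate matches, and Tlr9 had none.
Nfkbia promoter: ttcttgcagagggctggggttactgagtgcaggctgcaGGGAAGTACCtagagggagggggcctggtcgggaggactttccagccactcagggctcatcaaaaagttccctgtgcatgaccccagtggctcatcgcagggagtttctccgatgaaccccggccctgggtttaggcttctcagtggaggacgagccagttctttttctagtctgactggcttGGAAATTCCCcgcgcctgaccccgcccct
Tnf promoter: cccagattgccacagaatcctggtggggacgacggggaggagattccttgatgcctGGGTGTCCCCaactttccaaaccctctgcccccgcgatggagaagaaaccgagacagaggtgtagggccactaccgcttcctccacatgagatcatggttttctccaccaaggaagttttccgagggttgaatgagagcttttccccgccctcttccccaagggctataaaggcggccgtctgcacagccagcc
Cxcl3 promoter: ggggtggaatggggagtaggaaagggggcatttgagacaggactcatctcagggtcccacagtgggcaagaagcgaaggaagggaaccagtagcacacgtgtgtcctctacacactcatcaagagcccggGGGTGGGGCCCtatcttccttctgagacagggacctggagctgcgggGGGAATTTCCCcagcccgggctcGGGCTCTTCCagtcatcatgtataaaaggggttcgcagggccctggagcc
Tlr9 promoter: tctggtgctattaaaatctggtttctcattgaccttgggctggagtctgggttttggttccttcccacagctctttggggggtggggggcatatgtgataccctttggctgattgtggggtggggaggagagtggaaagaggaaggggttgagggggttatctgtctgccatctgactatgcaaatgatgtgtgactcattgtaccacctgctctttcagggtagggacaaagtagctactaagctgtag
The Nfkbia window lies at chr12:55492648-55492897 on the minus strand with 2 matches, and the Tnf window at chr17:35202008-35202257 on the minus strand with 1. The Cxcl3 window lies at chr5:90785851-90786100 on the plus strand, and the Tlr9 window at chr9:106222348-106222597 on the plus strand.

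Expression was read as FPKM (fragments per kilobase of a transcript's length, relative to a library's mapped total), summed over all transcripts of a gene. FPKM is a value per length, so levels can be set side by side between genes. Each library's values implied between 28310000 and 30700000 fragments. Pearson's r of log2(FPKM + 1) was 0.991 to 0.992 for pairs of the same group and 0.988 to 0.990 for pairs across groups, over 14181 genes, which are no independent replicates. The 7 macrophage markers were all expressed, with a summed level of 9728 to 13062 FPKM with CBR-5884 and 10992 to 13073 FPKM with solvent. Lyz2 made up most of that sum, and it overlapped between groups, as did Adgre1, Csf1r and Mertk. Cd68 (1292 to 1334 against 1148 and 1150 FPKM) and Itgam (199 to 221 against 158 and 182 FPKM) were higher in every CBR-5884 library. Fcgr1 was lower in every one (6.85 to 11.6 against 12.5 and 13.3 FPKM). Of the 8 T and NK cell markers, 6, Cd3e among them, were at 0 in all 5 libraries. Of 5 B cell markers 1, and of 6 mast cell and basophil markers 0, reached a mean of 1 FPKM. Ly6g and Retnlg, which define neutrophils, were also at 0 in all 5, although the summed level of the 11 neutrophil markers (4 of them, Mmp8 and Csf3r in the lead, at a mean of at least 1 FPKM) was 127.8 to 151.2 FPKM with CBR-5884 and 107.7 to 124.0 FPKM with solvent. Mmp8 carried that difference, and the granule genes Ngp, Ltf and Camp went the other way without overlap. Ngp was at 0.101 to 0.669 against 0.887 to 1.56 FPKM, Ltf at 0.0507 to 0.175 against 0.424 to 0.709 FPKM, and Camp at 0 against 0.197 and 0.341 FPKM. The granule genes Mpo and Elane did not follow them. Mpo overlapped (0 to 0.0378 against 0 to 0.0803 FPKM), and Elane was above 0 in CBR-5884 replicate 4 alone (0.0555 FPKM). S100a9, at 0.242 to 2.67 against 2.35 and 9.49 FPKM, had a lower mean under CBR-5884 but overlapped. S100a8 overlapped as well, at 9.32 to 10.6 against 7.03 and 10.1 FPKM. Summed levels were lower with CBR-5884 for the 6 monocyte markers (4.52 to 5.40 against 9.07 to 10.4 FPKM, with Ccr2 alone at a mean of at least 1 FPKM), the 7 dendritic cell markers (0.907 to 1.24 against 1.495 to 2.16 FPKM, none at that level) and the 5 fibroblast markers (10.8 to 17.1 against 17.9 to 18.9 FPKM, 2 at that level). The part of such cells in the results below was not tested, and in bulk RNA fewer cells of a type and less RNA per cell cannot be told apart.

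Most of the sensing and signalling genes were expressed under IL-4, and most of the secreted inflammatory products were not. With at least 1 FPKM in both solvent libraries called expressed, 30 of the 44 genes were expressed, 13 were low and 1, Il6, was listed at 0 in both. All 11 genes of the Toll-like receptor group, all 5 NF-kB subunits and all 5 costimulatory and adhesion molecules were expressed, as were 4 of the 5 NF-kB inhibitors and feedback genes (Nfkbiz was low). Of the 13 cytokine and CXC chemokine genes 3 were expressed: Il1rn, the interleukin 1 receptor antagonist, Il18 and Tnf. Among the 5 M1 enzymes, receptors and acute phase genes, Acod1, which makes itaconate, and Saa3 were expressed, and Cd38, Fpr2 and Socs3 were low. The number expressed was 34 at a threshold of 0.5 FPKM and 22 at 5 FPKM.

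**Figure D1:**
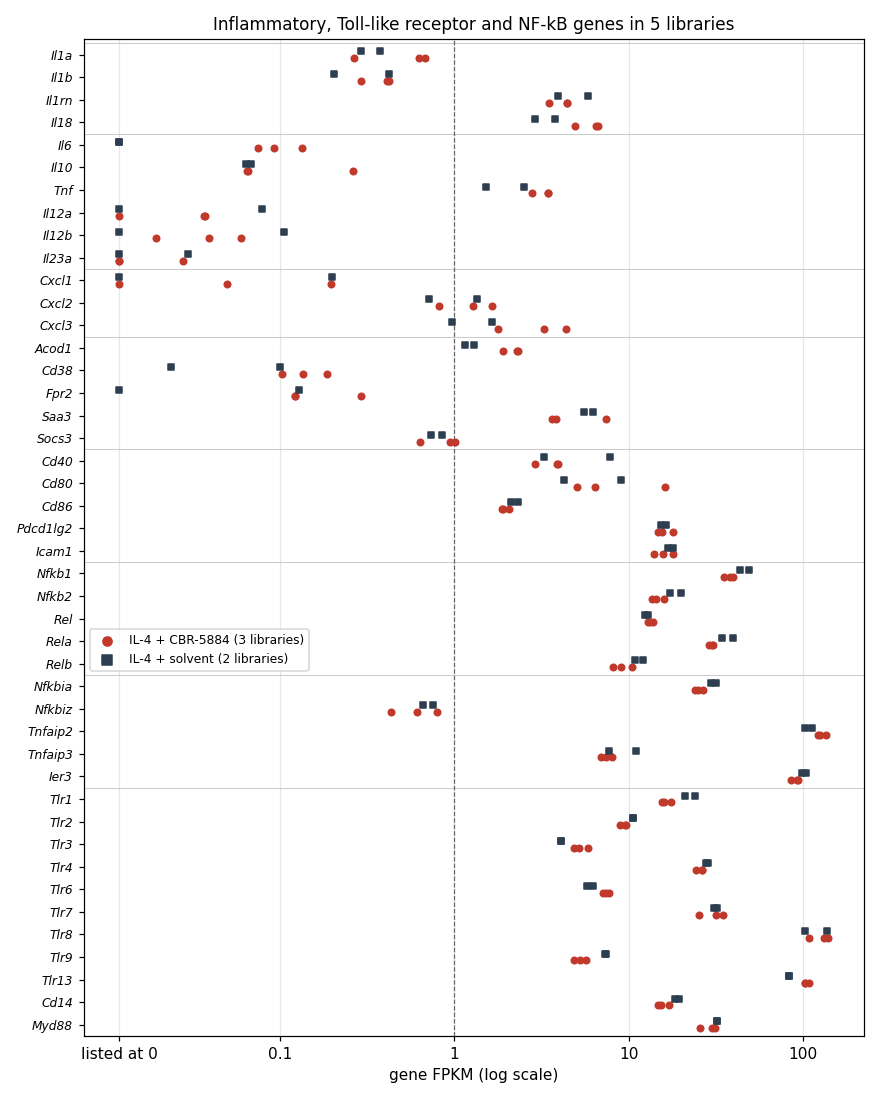
Level of the 44 genes in each library, in FPKM on a log axis, grouped by role; each point is 1 library, coloured by treatment, with libraries listed at 0 drawn at the axis floor. Tnfaip2, Tlr8, Tlr13 and Ier3 stand highest, and the interleukin 12 and 23 subunits, Il6 and Cxcl1 lie at or near 0 in both groups.

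The 6 genes listed at 0 in some libraries rest on at most 10.1 fragments in any library. Il6, the acute phase cytokine, was at 0.0753, 0.0922 and 0.134 FPKM with CBR-5884 replicates 3, 4 and 5 and at 0 in both solvent libraries. Those 3 values stand for at most 2.20, 2.68 and 3.96 fragments, and a level of up to 0.110 FPKM (3 fragments) is compatible with the zeros, so no fold is given. Il12b, the p40 chain shared by interleukins 12 and 23, was at 0.0396, 0.0600 and 0.0196 FPKM under CBR-5884 and at 0 and 0.106 FPKM with solvent. These 2 groups overlapped. Il12a, the p35 chain, was at 0, 0.0371 and 0.0367 FPKM under CBR-5884 and at 0 and 0.0791 FPKM with solvent, and Il23a, the p19 chain, at 0.0279, 0 and 0 against 0.0300 and 0. Cxcl1, a neutrophil-attracting chemokine, was at 0.0501, 0.197 and 0 FPKM against 0 and 0.199 FPKM. The formyl peptide receptor Fpr2 was at 0.293, 0.123 and 0.122 FPKM under CBR-5884 and at 0 and 0.129 FPKM with solvent. No difference was detectable at this depth for these 6 genes, and an exact 0 in such files can also be a failed estimate. Il1a and Il1b, the secreted interleukin 1 cytokines, lay between 0.205 and 0.676 FPKM over the 5 libraries, and Il10 and Cd38 between 0.0239 and 0.264 FPKM. Among the other low genes, the cytokine signalling inhibitor Socs3 ranged from 0.633 to 1.02 FPKM and Nfkbiz, an atypical IkB protein, from 0.436 to 0.801 FPKM.

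The comparison of CBR-5884 with solvent asks how PHGDH inhibition shifts these genes in IL-4-treated macrophages. Of the 44 genes, 32 had a mean of at least 1 FPKM and were tested with limma on log2(FPKM + 1) together with all 10770 such genes. None of the 32 reached a Benjamini-Hochberg adjusted p of 0.05 (adjusted p from 0.101 to 0.945), where 0.223% of all genes tested did (0.0464% at the higher side and 0.176% at the lower side). At an unadjusted limma p of 0.05, 7 of the 32 were higher under CBR-5884 and 9 were lower (21.9% and 28.1%), beside 7.24% and 12.4% of all genes (19.6% in either direction). Every CBR-5884 library lay above both solvent libraries for 9 genes (28.1%) and below both for 13 (40.6%), beside 16.6% and 24.9% of all genes. The 32 fold differences ran from -0.44 to 0.81 on the log2(FPKM + 1) scale, with a median of -0.13 where that of all genes was -0.03. That scale understates the difference of genes of low level. Both sets of shares were above the background, and no test of that difference was made. With reference transcripts alone, 1 of 31 tested genes was higher and 3 were lower at an unadjusted limma p of 0.05. Of all genes, 5.45% were higher and 8.15% lower in that setting. The higher share of the 31 genes thus lay below the background, and the lower share near it. The background split itself moved with the scaling: at an unadjusted p of 0.05, 780 genes were higher and 1334 lower as deposited, but 1170 and 1017 after rescaling to TPM.

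Single libraries weighed on the counts of genes at an unadjusted limma p of 0.05. The 9 lower genes became 4 without CBR-5884 replicate 3, 5 without CBR-5884 replicate 4 and 5 without solvent replicate 5, and the 7 higher genes became 4 without either solvent library. The shares of all genes also went down in these fits, from 12.4% lower to 8.97%, 10.5% and 9.51%, and from 7.24% higher to 4.29% without solvent replicate 3 and 5.77% without solvent replicate 5. No gene of the 44 reached an adjusted p of 0.05 in any of these fits.

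**Figure D2:**
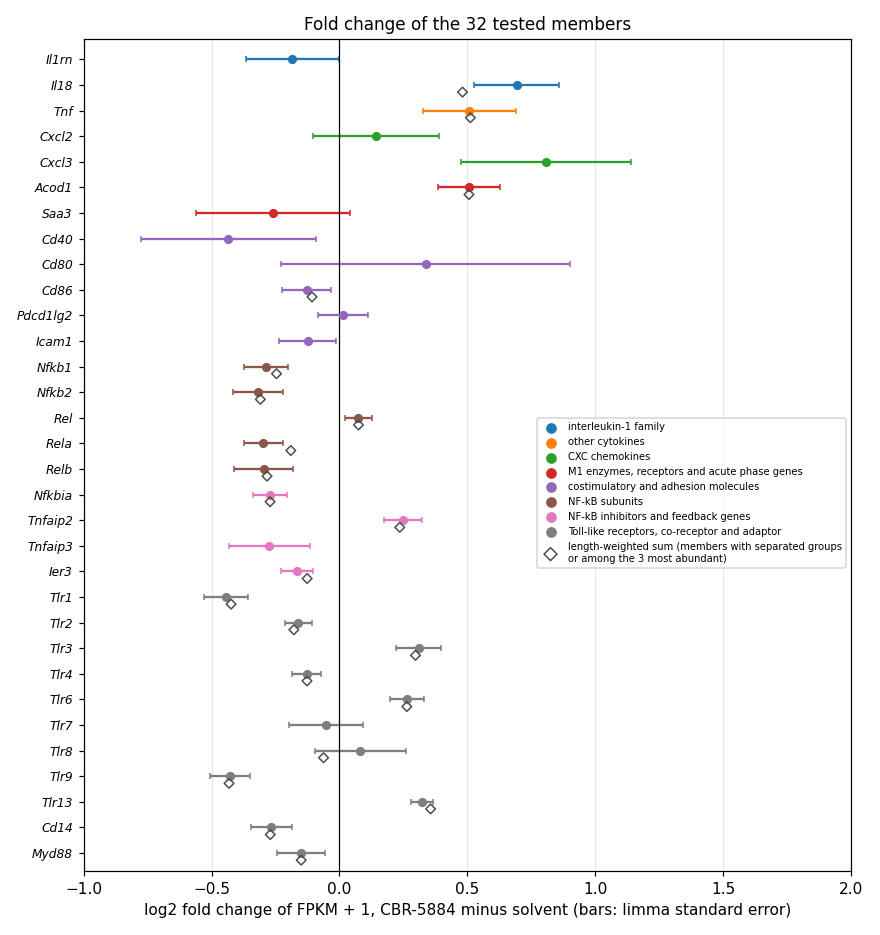
Difference between CBR-5884 and solvent for the 32 tested genes on the log2(FPKM + 1) scale, with limma standard errors as bars, coloured by role; open diamonds give the same difference from a length-weighted sum, for the genes the text gives in full where they could be tested. Cytokine, chemokine and Acod1 points lie mostly right of 0, and 4 of the 5 NF-kB subunits lie left of it, at -0.29 to -0.32.

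Of the 7 tested cytokine, chemokine and M1 enzyme or acute phase genes, Il18, Tnf, Cxcl3 and Acod1 had separated groups, each with the higher values under CBR-5884. Il18, an interleukin 1 family cytokine made as a precursor and cleaved by the inflammasome, was at 6.68, 4.90 and 6.46 FPKM under CBR-5884 and at 3.77 and 2.90 FPKM with solvent. Its lowest CBR-5884 library was above the higher solvent library, and the difference was 0.69 (SE 0.16, limma adjusted p = 0.156). This direction rests on transcripts that the authors' assembly added: with Ensembl reference transcripts alone the difference was -0.93 (SE 0.74). Tnf, the tumour necrosis factor gene, was at 2.81, 3.46 and 3.44 FPKM against 1.52 and 2.51 FPKM. The groups did not overlap, but solvent replicate 5 came close to CBR-5884 replicate 3, and the difference was 0.51 (SE 0.18, limma adjusted p = 0.245). It was 0.27 without solvent replicate 3 and 0.75 without solvent replicate 5. With reference transcripts alone the Tnf groups overlapped (2.12, 3.46 and 3.44 against 1.52 and 2.51 FPKM).

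Cxcl3, a ligand of the chemokine receptor Cxcr2, was the 1 gene of the 44 that was expressed in 1 group and not the other by the threshold of 1 FPKM. It stood at 1.78, 4.39 and 3.27 FPKM under CBR-5884 and at 0.972 and 1.65 FPKM with solvent, so that solvent replicate 3 lay just under the threshold. The 3 CBR-5884 libraries ranged over more than the distance between the group means, and the difference was 0.81 (SE 0.33, limma adjusted p = 0.286). Cxcl2, which lies beyond Cxcl1 on the same stretch of chromosome 5, overlapped between groups (0.814 to 1.64 against 0.722 to 1.34 FPKM, difference 0.14). Acod1, the itaconate-making enzyme of activated macrophages, was at 1.89, 2.31 and 2.29 FPKM under CBR-5884 and at 1.15 and 1.30 FPKM with solvent. Its 5 libraries formed 2 groups without overlap, 0.51 apart (SE 0.12, limma adjusted p = 0.159). Il1rn (3.51 to 4.44 against 3.91 to 5.85 FPKM, difference -0.18) and the acute phase gene Saa3 (3.64 to 7.42 against 5.56 to 6.20 FPKM) overlapped.

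Of the 5 costimulatory and adhesion molecules, Cd86 had separated groups. It encodes a ligand of the T cell protein CD28 and was at 2.06, 1.89 and 1.91 FPKM under CBR-5884 and at 2.13 and 2.33 FPKM with solvent. All 3 CBR-5884 values lay below both solvent values by a narrow margin, with a difference of -0.13 (SE 0.10, limma adjusted p = 0.508) that was 0.03 with reference transcripts alone. The other 4 genes overlapped between groups. Pdcd1lg2, the PD-1 ligand PD-L2 that IL-4 is known to induce, was among the higher of them at 14.7 to 17.9 FPKM against 15.3 to 16.3 FPKM (difference 0.01). Cd80 ranged from 5.03 to 16.2 FPKM with CBR-5884, where replicate 3 stood apart, and was at 4.25 and 9.02 FPKM with solvent. Most of this came from short assembled pieces, 14.5 of the 16.2 FPKM in replicate 3, and by the length-weighted sum described below Cd80 was at 2.53, 1.59 and 1.90 FPKM against 1.63 and 1.54 FPKM. Cd40, the receptor of CD40 ligand, was at 2.91 to 3.94 against 3.29 and 7.84 FPKM, and the adhesion molecule Icam1 at 14.0 to 17.9 against 16.8 and 17.8 FPKM.

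Of the 5 NF-kB subunits, 4 were at the lower value in every CBR-5884 library, and Rel was at the higher one. Nfkb1, which encodes p105 and its product p50, was at 35.1, 38.2 and 39.8 FPKM under CBR-5884 and at 49.0 and 43.5 FPKM with solvent. The lowest solvent library stood above the highest CBR-5884 library, and the difference was -0.29 (SE 0.08, limma adjusted p = 0.193). With reference transcripts alone the Nfkb1 groups overlapped (35.1, 32.6 and 31.4 against 29.5 and 43.5 FPKM) and the difference was -0.12 (SE 0.18). Nfkb2, which encodes p100 and p52 of the alternative pathway, was at 13.6, 14.4 and 15.9 FPKM against 17.2 and 19.8 FPKM, a difference of -0.32 (SE 0.10, limma adjusted p = 0.207). Relb, the partner of p52, was at 8.13, 9.02 and 10.4 FPKM against 10.8 and 12.1 FPKM, with CBR-5884 replicate 5 close to solvent replicate 3 (difference -0.30, SE 0.12, limma adjusted p = 0.268). On its most abundant reference transcript alone the Relb difference was 0.06 (SE 0.63).

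Rela, which encodes the transactivating subunit p65, was at 28.7, 30.0 and 30.4 FPKM under CBR-5884 and at 39.4 and 34.2 FPKM with solvent, a difference of -0.30 (SE 0.08, limma adjusted p = 0.169). The whole gap lay in assembled transcripts that were listed above 0 in the solvent libraries alone (10.1 and 4.63 FPKM). Its reference transcripts stood at 28.7, 30.0 and 30.4 FPKM against 29.3 and 29.6 FPKM, where the groups overlapped and the difference was 0.01 (SE 0.05). Rel, the c-Rel subunit, was at 13.3, 12.96 and 13.7 FPKM under CBR-5884 and at 12.3 and 12.9 FPKM with solvent. Its groups were separated by the small step between CBR-5884 replicate 4 and solvent replicate 5, and the difference was 0.07 (SE 0.05, limma adjusted p = 0.477).

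The inhibitors and feedback genes of the pathway split as well. Nfkbia, the IkB-alpha gene at chr12:55489410-55492647 whose promoter is printed above, was at 26.8, 24.9 and 24.0 FPKM under CBR-5884 and at 31.6 and 29.7 FPKM with solvent. Both solvent libraries were above all 3 others, and the difference of -0.27 (SE 0.07, limma adjusted p = 0.164) stayed between -0.32 and -0.23 over 17 alternative settings. Ier3, an early response gene that NF-kB induces, was at 93.7, 91.9 and 85.3 FPKM against 98.6 and 104 FPKM. Its difference was smaller, -0.16 (SE 0.06, limma adjusted p = 0.253). Tnfaip3, the ubiquitin-editing inhibitor A20, was at 6.92 to 8.05 FPKM against 7.71 and 11.01 FPKM, and these groups overlapped. Tnfaip2, a TNF-induced gene, was with Tlr8 and Tlr13 among the 3 genes of highest mean over the 5 libraries (in the solvent group Ier3 stood above Tlr13), at 136, 122 and 125 FPKM with CBR-5884 and 113 and 102 FPKM with solvent. Its groups were separated, with a difference of 0.25 (SE 0.08, limma adjusted p = 0.200). In CBR-5884 replicate 3, however, all of its level was given to an assembled transcript, so that reference transcripts alone turned the difference to -2.12 (SE 2.51).

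The Toll-like receptors differed in both directions. Tlr13, the endosomal sensor of bacterial ribosomal RNA (chrX:106143204-106160493), had the lowest p of the 44 genes. It was at 107, 103 and 103 FPKM under CBR-5884 and at 83.3 and 83.0 FPKM with solvent. Replicates within each group lay close together, far apart from the other group, and the difference was 0.32 (SE 0.04, limma adjusted p = 0.101). Tlr6, the partner of Tlr2 for diacyl lipopeptides, was at 7.41, 7.13 and 7.74 FPKM against 5.78 and 6.26 FPKM, a difference of 0.26 (SE 0.07, limma adjusted p = 0.162). Tlr3, the sensor of double-stranded RNA, was at 5.84, 4.87 and 5.21 FPKM against 4.08 and 4.07 FPKM, a difference of 0.31 (SE 0.09, limma adjusted p = 0.183). All 3 receptors had every CBR-5884 library above both solvent libraries. With reference transcripts alone the differences were -0.11 (SE 0.26) for Tlr13, -0.46 (SE 0.47) for Tlr6 and -0.02 (SE 0.48) for Tlr3.

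Tlr1, Tlr2, Tlr4 and Tlr9 were at the lower value in every CBR-5884 library. Tlr1, the partner of Tlr2 for triacyl lipopeptides, was at 15.8, 15.5 and 17.6 FPKM under CBR-5884 and at 21.1 and 23.9 FPKM with solvent, a difference of -0.44 (SE 0.09, limma adjusted p = 0.132). Tlr9, the sensor of unmethylated CpG DNA (chr9:106222598-106226883), was at 5.23, 4.83 and 5.66 FPKM against 7.34 and 7.43 FPKM, a difference of -0.43 (SE 0.08, limma adjusted p = 0.132). These 2 receptors kept a negative difference over 17 alternative settings, from -0.53 to -0.26 for Tlr1 and from -0.76 to -0.28 for Tlr9. So did Tlr2 (-0.36 to -0.11) and Tlr4 (-0.15 to -0.09). With reference transcripts alone the Tlr1 groups overlapped (12.8, 11.2 and 17.6 against 15.5 and 23.9 FPKM). Tlr2 was at 9.66, 9.51 and 8.96 FPKM under CBR-5884 and at 10.6 FPKM in both solvent libraries, a difference of -0.16 (SE 0.05, limma adjusted p = 0.230) that was -0.36 (SE 0.20) with reference transcripts alone. Tlr4, the lipopolysaccharide receptor, was at 26.2, 24.3 and 26.2 FPKM against 27.6 and 28.4 FPKM, a difference of -0.13 (SE 0.06, limma adjusted p = 0.302). The gaps of Tlr2 and Tlr4 were narrow beside those of Tlr1 and Tlr9, and the differences between receptors were not tested. The genes Tlr1 and Tlr6 lie next to each other on chromosome 5, on the same strand, and had fold differences of opposite sign, although both were negative with reference transcripts alone.

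Cd14, the co-receptor that delivers lipopolysaccharide to Tlr4, was at 15.3, 14.6 and 17.0 FPKM under CBR-5884 and at 19.5 and 18.5 FPKM with solvent. Every CBR-5884 library lay below both solvent libraries, by -0.27 (SE 0.08, limma adjusted p = 0.196), or -0.17 (SE 0.12) with reference transcripts alone. The adaptor Myd88 was at 25.7, 30.0 and 31.1 FPKM against 32.04 and 32.2 FPKM, where CBR-5884 replicate 3 stood lowest (difference -0.15, SE 0.09, limma adjusted p = 0.431, and -0.072 without that library). The monocyte marker sum given above was lower in the same libraries as these genes, and its part was not tested.

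**Figure D3:**
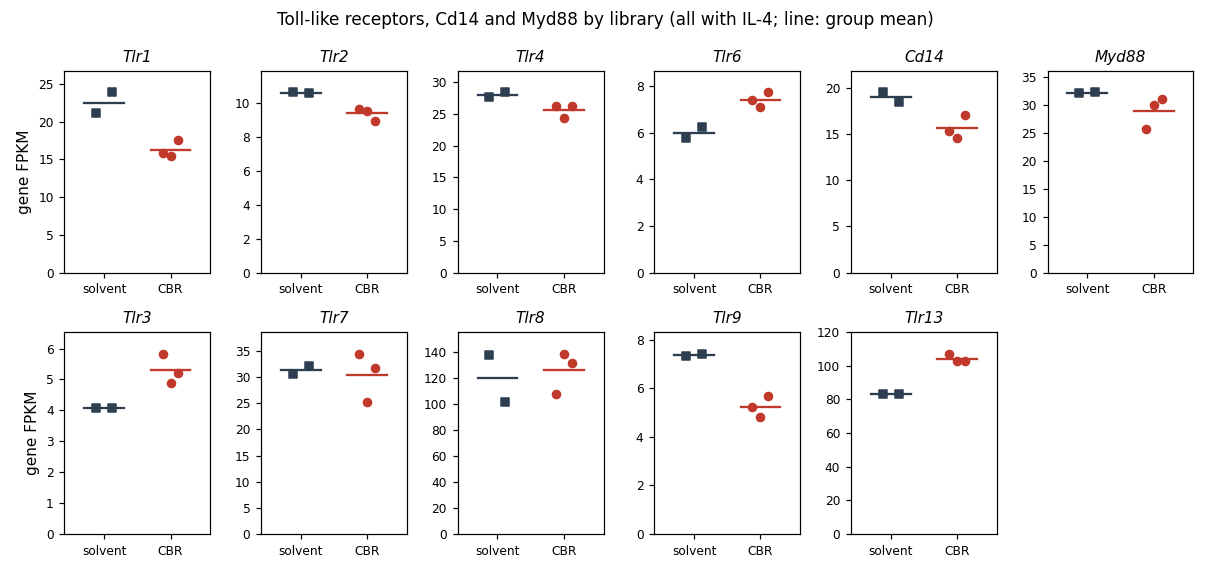
Level in FPKM of each Toll-like receptor, the co-receptor Cd14 and the adaptor Myd88, 1 panel per gene with its own linear axis from 0; each point is 1 library and each line a group mean. Tlr13 stands at 103 to 107 FPKM under CBR-5884 and at 83.0 to 83.3 FPKM with solvent, while Tlr1 and Tlr9 are lower with CBR-5884 and Tlr7 and Tlr8 overlap.

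By level, the receptor repertoire was dominated by the endosomal sensors in both groups. Tlr8, which belongs to the single-stranded RNA sensors, was at 108, 139 and 131 FPKM under CBR-5884 and at 138 and 102 FPKM with solvent. The groups overlapped (difference 0.08, SE 0.18, limma adjusted p = 0.823), and without solvent replicate 5 the difference was -0.13. In CBR-5884 replicate 4 and solvent replicate 3, 84.1 and 96.2 FPKM of it came from assembled transcripts that run past the annotated end of the gene, so its level is not counted over the same length in all libraries. Tlr7, its close relative on chromosome X, was at 25.2 to 34.5 FPKM against 30.7 and 32.1 FPKM and overlapped too. Summed over the 9 receptors the level was 319.7, 332.9 and 337.3 FPKM with CBR-5884 and 328 and 297 FPKM with solvent, and the 5 endosomal receptors made up 81.5%, 83.1% and 82.1% of it against 80.1% and 76.8%. In the solvent libraries the order of levels ran from Tlr8 through Tlr13, Tlr7, Tlr4, Tlr1, Tlr2, Tlr9 and Tlr6 to Tlr3, with no overlap between neighbours. Under CBR-5884 Tlr6 stood above Tlr3 and Tlr9, whose values overlapped, and Tlr7 and Tlr4 overlapped as well. Tlr5, Tlr11 and Tlr12, which bind flagellin or profilin, were at most 0.576 FPKM in any library.

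**Figure D4:**
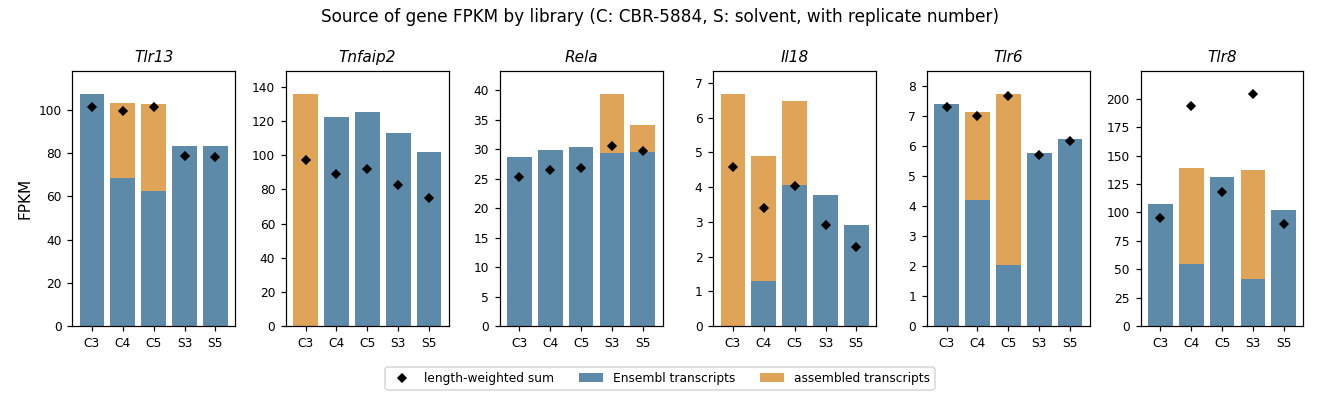
FPKM of 6 genes in each library (C for CBR-5884 and S for solvent, with the replicate number), stacked by source: Ensembl reference transcripts and transcripts assembled from the reads; black diamonds give the length-weighted sum. For Tlr13 the reference part is 68.4 and 62.3 FPKM in CBR-5884 replicates 4 and 5, with 34.4 and 40.5 FPKM in assembled transcripts, and for Tnfaip2 the whole of CBR-5884 replicate 3 is assembled.

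The plot of transcript sources shows that the authors' assembly gave part of a gene's fragments to a reference transcript in some libraries and to a new transcript model in others. A reference-only value then loses the fragments of the new model, and a plain sum adds models of unequal length. A sum in which each transcript's FPKM was weighted by its length, divided by the exonic length of the gene, was added after these values had been seen. By it Tlr13 was at 101, 99.5 and 101 FPKM under CBR-5884 and at 78.6 and 78.3 FPKM with solvent. That was the 1 setting of 17 in which a gene of the 44 reached an adjusted p of 0.05: the difference for Tlr13 was 0.36 (SE 0.04, limma adjusted p = 0.0495, against 0.0495 to 0.873 over its 17 alternatives), with 62 of 10198 genes reaching it. Rela was at 25.4, 26.5 and 26.9 FPKM against 30.5 and 29.7 FPKM by this sum, and Il18 at 4.58, 3.41 and 4.04 FPKM against 2.90 and 2.27 FPKM, so that the groups of both genes stayed apart. Tlr8 spread from 89.6 to 204 FPKM within the solvent group.

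Of 99 further genes of the pathway in 6 lists, 79 were tested with limma and none reached an adjusted p of 0.05. At an unadjusted p of 0.05, 4 were higher under CBR-5884 and 12 were lower (5.06% and 15.2%), near the background of 7.24% and 12.4%, and their median difference was -0.05. Groups were separated with higher values for 11 genes (13.9%) and with lower values for 20 (25.3%), beside 16.6% and 24.9% of all genes.

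The TLR accessory and signalling list (33 genes, 28 tested, 1 higher and 5 lower at an unadjusted p of 0.05) held the lowest p. Ikbke, the IKK-related kinase that acts on IRF3, was at 16.2, 14.9 and 14.2 FPKM under CBR-5884 and at 26.6 and 25.8 FPKM with solvent. Every CBR-5884 library was far below both solvent libraries, with a difference of -0.76 (SE 0.07, limma adjusted p = 0.0645). Ly86 (MD-1), the partner of the receptor Cd180, was at 115 ± 5.53 FPKM (SD, n = 3) against 158 ± 11.3 FPKM (SD, n = 2), a difference of -0.45 (limma adjusted p = 0.121). In the list of IKK and further NF-kB regulators (17 genes, all tested, 1 higher and 2 lower), Nfkbib (IkB-beta) was at 15.6 ± 0.30 against 18.7 ± 0.67 FPKM, a difference of -0.25 (limma adjusted p = 0.132). Ikbkb, the IKK-beta kinase, was at 92.4, 78.5 and 67.8 FPKM under CBR-5884 and at 53.9 and 38.3 FPKM with solvent. Its groups did not overlap but spread widely, with a difference of 0.78 (SE 0.20, limma adjusted p = 0.170).

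Among cytokine receptors and decoys (12 genes, 8 tested, 1 higher and 3 lower at an unadjusted p of 0.05), the TNF receptor Tnfrsf1b was at 388 ± 25.1 FPKM with CBR-5884 and 322 ± 1.07 FPKM with solvent, a difference of 0.27 (limma adjusted p = 0.167). Il10rb, a chain of the interleukin 10 receptor, was at 129 ± 6.77 against 151 ± 4.15 FPKM, a difference of -0.22 (limma adjusted p = 0.181). The inflammasome list (8 genes, all tested) had 1 higher gene, Nek7 (44.8 ± 1.48 against 40.7 ± 0.45 FPKM, difference 0.13, limma adjusted p = 0.249), an activator of Nlrp3. Nlrp3 itself was at 3.32, 3.34 and 4.45 FPKM against 4.60 and 4.83 FPKM, a difference of -0.29 (limma adjusted p = 0.321). Its groups were separated at the lower side.

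Further M1 markers (18 genes) were mostly low or at 0 in these cells, and 8 were tested. Gbp2, an interferon-induced GTPase, was at 15.5, 15.3 and 18.04 FPKM under CBR-5884 and at 22.6 and 26.0 FPKM with solvent, a difference of -0.55 (SE 0.10, limma adjusted p = 0.132), and was the 1 gene of this list at an unadjusted p of 0.05. Its groups did not overlap, and neither did those of the cytokine gene Il15 (9.24 ± 1.36 against 12.47 ± 1.95 FPKM, difference -0.40, limma adjusted p = 0.259). Nos2, the inducible nitric oxide synthase and a defining M1 enzyme, was at most 0.199 FPKM in any library, and Il27 and Cxcl11 were listed at 0 in all 5. Among immediate early and mRNA decay genes (11 genes, 10 tested, 1 lower at an unadjusted p of 0.05), Ier2 was at 9.99 ± 0.66 against 12.8 ± 0.65 FPKM, a difference of -0.33 (limma adjusted p = 0.146). Junb, an AP-1 subunit, was at 97.3 ± 4.17 against 105 ± 2.74 FPKM (difference -0.10, limma adjusted p = 0.379).

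Some values may hold reads of a second gene. Exons of 7 of the 44 genes, Icam1, Nfkb2, Tnfaip2, Tlr3, Myd88, Il1a and Il1b, overlap an annotated gene on the opposite strand, by 531 nt for Nfkb2 and 511 nt for Icam1 at most. Of the further genes given with values, the same holds for Ikbke, Nfkbib, Junb, Nek7, Gbp2, Il27 and Cxcl11. Fpr2 shares 48 nt, and Il10rb 569 nt, with a gene on the same strand. The libraries were made with a directional kit, per the labels' protocols, but the strand setting of the authors' mapping is not given in the sources used here, so reads of such pairs may not be told apart.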

How the data were processed

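RNA sequencing of 5 libraries (single reads of 75 bp, directional kit, per the labels' protocols) was processed by the authors with Bowtie2, TopHat2 and Cufflinks on mm10 (GRCm38), per the submitters' processing notes; for versions, annotation release and strand setting, the sources used here give nothing. The deposited files list FPKM per transcript, estimated in each library on its own, for Ensembl transcripts and transcripts assembled from the reads, per the file contents. No normalization between libraries is recorded. The FPKM is kept as text within an attribute column.

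Reference transcripts were matched to genes of GENCODE mouse release 21 (70923 of 71311, 99.5%). Assembled transcripts of at least 200 nt with at least 50% of their exonic bases in a gene on their strand were added; the others were left out. They held 64.0% to 70.3% of a library's summed FPKM and 8.55% to 10.2% of its covered bases. Gene FPKM was the sum over these transcripts. Fragments per library were inferred from coverage divided by FPKM and the read length; limits from 3 fragments cover counting error only.

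Genes with a mean of at least 1 FPKM were tested with limma 3.58.1 (R 4.3.3; lmFit, eBayes with trend, two-sided) on log2(FPKM + 1) in 5 libraries with no covariate, with Benjamini-Hochberg adjustment over all 10770 genes; the script was tested on simulated data. FPKM are not counts, so no count model was used. The alternatives were other pseudocounts, filters, transcript choices and scalings, the replicate number as a block, a variance prior without trend, leaving out each library, and a length-weighted sum added after the values were seen.

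The 44 genes and all lists were chosen with earlier results of these data known. Values in every library are given for genes called, genes whose groups did not overlap, the 3 most abundant genes, genes expressed in 1 group and genes listed at 0 in some but not all libraries; of each pathway list, the 2 genes with the lowest p. Tlr5, Tlr11, Tlr12, Nos2, Il27 and Cxcl11 were named after their values were seen.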

Additional observations from a re-analysis of the deposited data

How the results depend on the processing

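None of the 44 genes reached an adjusted p of 0.05 in limma under the 16 alternatives planned, and 1 (Tlr13) did with the length-weighted sum chosen after seeing the data. Over all genes, 24 reached it as reported, 38 with no filter on low values, 9 with a mean of at least 5 FPKM, 39 with reference transcripts only, 62 with the length-weighted sum and 19 to 89 when a library was left out (89 without solvent replicate 3, 66 without solvent replicate 5). In those 2 fits the lone solvent library is assumed to vary like the other group.

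At an unadjusted p of 0.05, the 7 higher genes of the 44 became 3 with a mean of at least 5 FPKM, 1 with reference transcripts or the most abundant one, and 4 to 6 when a library was left out. The 9 lower genes became 3 with either reference choice and 4 to 8 when a library was left out. Of all genes, 5.45% were higher and 8.15% lower with reference transcripts, 5.36% and 7.04% with the most abundant one, and 8.18% and 14.0% at a mean of at least 5 FPKM, against 7.24% and 12.4%. Of the 44 genes, 23 were tested at a mean of at least 5 FPKM and 31 with either reference choice, against 32. Genes with separated groups numbered 4 (mean of at least 5 FPKM) and 3 (either reference choice) at the higher side, and 7 with reference transcripts only at the lower side, against 9 and 13. The share of all genes with separated groups was not counted in these settings, so these numbers have no background beside them.

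Of the 23 genes followed through all settings, these changed sign with reference transcripts only: Il18 (-0.93), Cd86 (0.035), Rela (0.010), Tnfaip2 (-2.12), Tlr3 (-0.023), Tlr6 (-0.46) and Tlr13 (-0.11). With the most abundant reference transcript, Il18 (-0.85), Cd86 (0.035), Rela (0.010), Relb (0.064), Tnfaip2 (-2.01), Tlr6 (-0.46) and Tlr13 (-0.11) did. Tlr8 changed sign without solvent replicate 5 (-0.13, from a range of -0.13 to 0.30 over the libraries left out) and with the length-weighted sum (-0.062). No other setting changed the sign of any of the 23, and the cause was not tested beyond the transcript sources shown.

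With the replicate number as a block, 3 genes overall reached an adjusted p of 0.05, none of the 44, and at an unadjusted p of 0.05, 8 of the 44 were higher and 5 lower, beside 4.50% and 9.37% of all genes. Replicates 3 and 5 of the 2 groups share a number, but the labels do not say what it marks, so the numbers are not taken to pair the libraries. Deviations from the group means correlated at 0.07 and 0.08 between libraries of the same number. The correlation was -0.07 for CBR-5884 replicate 3 with solvent replicate 5, and -0.08 for CBR-5884 replicate 5 with solvent replicate 3. Deviations of 2 solvent libraries mirror each other, so this check cannot decide on pairing. At 28310000 to 30700000 fragments per library, genes under about 0.1 FPKM rest on a few fragments.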
